A study of Mus musculus with 6 samples.

Results

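The genes described here build the machinery that pulls a dividing cell apart: Anln, Kif23, Racgap1, Ect2, Cit, Prc1, Kif20a, Aurkb, Incenp and Cep55. They were chosen by symbol, through the mouse Ensembl identifier of each row of the count table, and make up 10 of its 55401 rows. RNA enriched for poly(A) was sequenced from ADC106, a mouse line labelled as angiosarcoma, a cancer of the endothelium. The cells were transfected with 12.5 nM of a microRNA mimic and harvested at day 3. A total of 3 libraries came from cells given an NC mimic (genotype label WT) and 3 from cells given an miR-497 mimic (genotype label miR-497 overexpression). All cells were thus transfected, and untransfected cells were not analysed here. The line is a single one, and the labels do not say whether the libraries of a group came from separate cultures, so the p-values measure the spread between these libraries, which may be technical.

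Library totals ranged from 25777676 to 36159499 counts. All 10 listed endothelial markers passed the filter on low counts, with mean NC levels from 4.17 CPM (Vwf) to 3554 CPM (Pecam1), where CPM is the count scaled to a library of fixed size after TMM normalization. Of 8 leukocyte and epithelial markers, Cd3e was listed at 0, Ptprc, Adgre1, Epcam, Krt8 and Krt18 had at most 13 counts in any library, Cdh1 had at most 14, and Cd68 was at 8.25 ± 0.197 CPM with NC and 17.5 ± 2.39 CPM with miR-497 (SD, n = 3).

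Cytokinesis starts after the chromosomes have separated. Antiparallel microtubules are bundled between them into the central spindle by PRC1 and by centralspindlin, a complex of the kinesin KIF23 and the GTPase-activating protein RACGAP1. The chromosomal passenger complex, with the kinase AURKB and its scaffold INCENP, is carried to this bundle by the kinesin KIF20A. RACGAP1 recruits the exchange factor ECT2, which activates RhoA at the cortex, and a contractile ring of actin and myosin forms there, held together by the scaffold anillin (Anln) and citron kinase (Cit). CEP55 then gathers at the midbody and recruits the ESCRT machinery that cuts the last bridge. The mRNAs of most of these proteins are known to peak in G2 and mitosis, so their level in a bulk sample also depends on how many cells are cycling. A smaller number of cells in those phases and less mRNA per cell cannot be told apart in these data.

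The mature guide strand of miR-497 is shown because its seed, bases 2 to 8 in capitals, defines the sites that were looked for in the cytokinesis mRNAs. The sequence is from RefSeq (GRCm38.p6, chr11:70234730-70234751, plus strand).
mmu-miR-497a-5p: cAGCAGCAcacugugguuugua

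A 3' UTR site of 7 bases or more (TGCTGCT, or GCTGCTA) was found in 1 of the 9 cytokinesis genes that could be tested, Kif23, against 28.1% of 12860 tested genes with a 3' UTR in GENCODE M21. Its site, at bases 192 to 199 of a 3' UTR of 384 bases, is an 8mer (TGCTGCT followed by A), a class that 4.61% of those genes carry. Anln, Racgap1, Kif20a and Aurkb had no more than the inner 6mer GCTGCT in the 3' UTR, and Ect2, Cit, Incenp and Cep55 had none of these words there. In the coding sequence, Anln had 1 site of 7 bases with a terminal A, at bases 889 to 895, whereas 39.9% of 12945 tested genes had a site of 7 bases or more in the coding sequence. The sequences given 5' to 3' as DNA, with the match in capitals, are the only sites of 7 or more bases and examples of the 6mers: the Kif23 8mer (chr9:61917454-61917483), the Anln coding site (chr9:22375101-22375130), the Anln 3' UTR 6mer at bases 431 to 436 (chr9:22332602-22332631), the Racgap1 6mer (chr15:99620672-99620701), all on the minus strand, and the Aurkb 3' UTR 6mer (chr11:69051304-69051333, plus strand), in GRCm38.
Kif23 3' UTR: aaacaaacaaaTGCTGCTAttgattagctg
Anln coding sequence: cccctgtgacaGCTGCTAccttcatcactg
Anln 3' UTR: acactagtttaaGCTGCTcagagctgcttt
Racgap1 3' UTR: gcaagaaagttaGCTGCTtctgtctttggt
Aurkb 3' UTR: ttaaaagcactgGCTGCTcttcccaggaac

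Promoters were compared because the members moved together, as described below. The cell cycle homology region (CHR), a short word bound by the MuvB complexes that time G2/M transcription, was searched as TTTGAA or TTCGAA on both strands in RefSeq promoters running from 250 bases before to 50 after the start (GRCm38.p6). It was present in 5 of the 6 members with a promoter that could be searched, namely Anln, Kif23, Racgap1, Ect2 and Cep55, and not in Cit. Of the 10816 tested genes with a promoter, 16.9% held the word, as did 14.4% of 13869 single promoters of tested genes. The CCAAT box, searched as CCAAT on both strands, was in 3 of the 6, Kif23, Racgap1 and Ect2, and in 43.1% of tested genes. The E2F words TTCGCGC and TTGGCGC were in Ect2 and in 7.72% of tested genes, and the Ect2 match overlaps 1 of its CCAAT boxes. The windows that follow hold a CHR word in capitals. Counted from 1 at the first transcribed base, the word lies at 29 to 34 in Anln, which has an adjoining one on the other strand at 22 to 27, at 3 to 8 in Kif23, at 6 to 11 in Racgap1 and at 25 to 30 in Cep55. Ect2 has 2 words, at -114 to -109 and at 40 to 45, of which the first is shown. The Ect2 and Cep55 positions refer to the first of 2 annotated starts. The windows are chr9:22389161-22389190, chr9:61946780-61946809, chr15:99651634-99651663 and chr3:27153975-27154004 on the minus strand, and chr19:38054996-38055025 on the plus strand, where the Cep55 word reads TTCAAA because it is on the opposite strand.
Anln promoter: tgaaattcaaatTTTGAAcggccgtggtag
Kif23 promoter: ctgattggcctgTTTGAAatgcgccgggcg
Racgap1 promoter: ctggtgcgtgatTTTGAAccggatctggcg
Ect2 promoter: ccgtttaccggaTTTGAAacacactcacaa
Cep55 promoter: acagccgcgggaTTCAAActcccggaagcg

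All 9 cytokinesis genes that could be tested were lower with the miR-497 mimic, by 1.17-fold to 2.13-fold. This was tested with edgeR's quasi-likelihood test and Benjamini-Hochberg adjustment over 14661 genes, with a threshold of 0.05, under which 26.0% of all tested genes were lower and 23.8% higher, 49.8% in either direction. In each of the 9, every miR-497 library was below every NC library, as was the case for 29.6% of all tested genes. The median log2 fold change, miR-497 over NC, was -0.73 for the 9 genes and -0.02 for all tested genes. Anln, Cep55 and Aurkb fell at least 2-fold, a size that 5.19% of tested genes reached in that direction. The smallest change was in Incenp.

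The remaining gene, Prc1 (ENSMUSG00000038943, chr7:80294450-80316259), was listed at 0 in all 6 libraries. Rpl13 and Cox4i1, which encode a ribosomal protein and a respiratory chain subunit used by every cell, were also listed at 0 throughout. The 0 of Prc1 was therefore not read as a level, and its ratio to Kif20a was not formed.

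**Figure D1:**
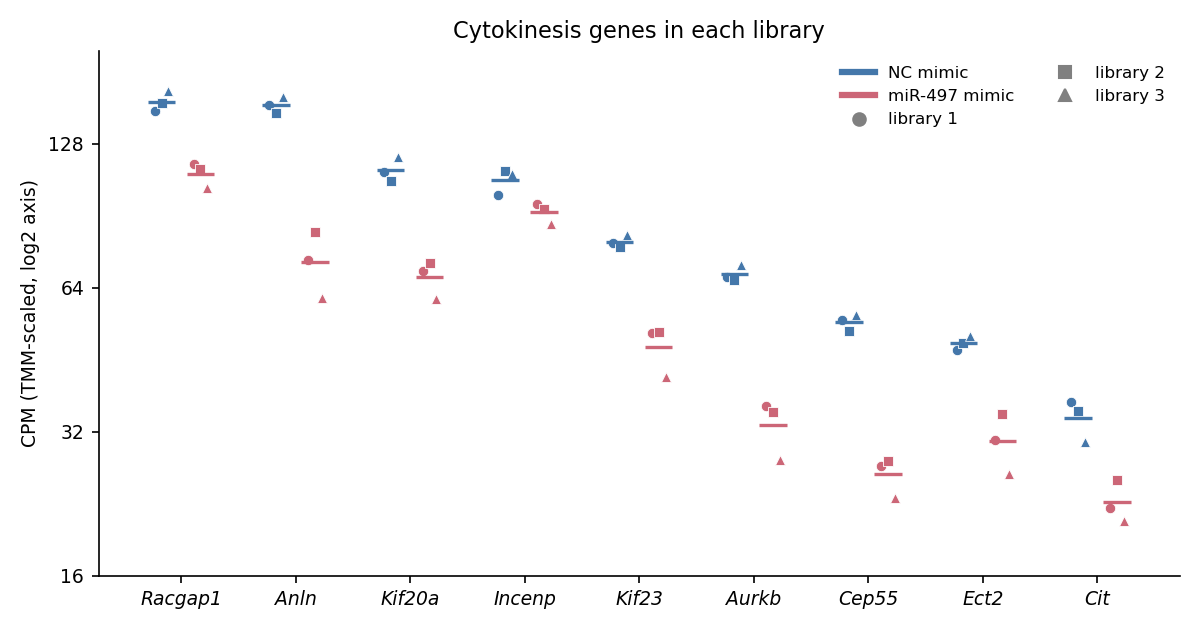
CPM of the 9 tested cytokinesis genes (log2 axis) in each of the 3 NC and 3 miR-497 libraries; symbols mark the library number and short lines the group means. In every gene the 3 miR-497 points lie below the 3 NC points, and miR-497 library 3 is the lowest point.

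Anillin (Anln, ENSMUSG00000036777, chr9:22332012-22389188) is the scaffold that links actin, myosin, septins and RhoA in the contractile ring. It stood at 154, 148 and 160 CPM in NC libraries 1 to 3 and at 73.2, 83.5 and 60.8 CPM in miR-497 libraries 1 to 3. The groups were separated by a wide gap, and the miR-497 libraries were more spread than the NC libraries (SD 11.4 against 6.04 CPM, n = 3). By edgeR, the estimate was, as a log2 ratio, -1.09 ± 0.0841 (SE), miR-497 over NC, at an adjusted p of 1.6e-08, the largest fall among the members.

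Citron kinase (Cit, ENSMUSG00000029516, chr5:115845278-116008947) sits in the ring and later organises the midbody. It was at 36.8, 35.3 and 30.4 CPM with NC and at 22.1, 25.4 and 20.8 CPM with miR-497. NC library 3 was the lowest of its group and came closest to the miR-497 libraries, but the groups did not overlap. By edgeR, the estimate was, as a log2 ratio, -0.59 ± 0.0924 (SE), miR-497 over NC, at an adjusted p of 5.1e-05.

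Ect2 (ENSMUSG00000027699, chr3:27097222-27153878), the exchange factor that loads RhoA with GTP at the division plane, was at 47.4, 49.0 and 50.7 CPM with NC and at 30.7, 34.9 and 26.2 CPM with miR-497. The groups did not overlap, and the NC values lay closer together than the miR-497 values. The edgeR estimate was -0.68 ± 0.0895 (SE) in log2 at an adjusted p of 7.7e-06.

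The subunits of centralspindlin both fell, and by different amounts. Kif23 (ENSMUSG00000032254, chr9:61915905-61946774), the motor subunit, was at 79.1, 77.6 and 82.3 CPM with NC and at 51.3, 51.7 and 41.6 CPM with miR-497, which edgeR put at -0.73 ± 0.0783 (SE) in log2 (adjusted p = 8.2e-07). Racgap1 (ENSMUSG00000023015, chr15:99620496-99651656), the GTPase-activating subunit, was at 149, 155 and 165 CPM with NC and at 116, 113 and 103 CPM with miR-497, which edgeR put at -0.50 ± 0.0579 (SE) in log2 (adjusted p = 1.9e-06). Kif23, with the 8mer site, fell more than Racgap1, Ect2, Cit and Incenp, and less than Anln, Cep55, Aurkb and Kif20a. None of these others has a 3' UTR site longer than 6 bases. The part of the site in the fall of Kif23 was not tested. The log2 ratio of Kif23 to Racgap1 was -0.92, -0.9997 and -0.9994 under the NC mimic, then -1.17, -1.13 and -1.31 under miR-497, a difference of -0.23 (exact permutation test, 2-sided, p = 0.1). A p of 0.1 is the smallest that 3 against 3 libraries can give, so none of the 6 ratios between partners that were formed can pass 0.05.

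Kif20a (ENSMUSG00000003779, chr18:34624613-34633277), the kinesin that moves the passenger complex to the central spindle, was at 112, 107 and 120 CPM with NC and at 69.3, 71.96 and 60.6 CPM with miR-497. The groups were well apart. By edgeR the log2 difference was -0.75 ± 0.0692 (SE; adjusted p = 1.4e-07). Exons of Cdc23, on the opposite strand, cover 29.3% of the exon bases of Kif20a, and the strand setting of the counting is not given in the sources used here, so a share of its reads may be uncertain. Opposite-strand exons cover none of the other 8 tested members.

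The members of the passenger complex, Aurkb and Incenp, differed more in their falls than those of centralspindlin. Aurkb (ENSMUSG00000020897, chr11:69045647-69051664), its kinase, was at 67.3, 66.5 and 71.4 CPM with NC and at 36.2, 35.1 and 27.9 CPM with miR-497, which edgeR put at -1.05 ± 0.0866 (SE) in log2 (adjusted p = 3.6e-08). Incenp (ENSMUSG00000024660, chr19:9872296-9899551), the scaffold that binds and activates the kinase, was at 100.1, 112 and 111 CPM with NC and at 95.8, 93.6 and 86.9 CPM with miR-497. The groups of Incenp did not overlap, but NC library 1 lay close to miR-497 library 1. The edgeR estimate was -0.23 ± 0.0611 (SE) in log2 at an adjusted p of 0.0055, and without NC replicate 2 the adjusted p was 0.055, with a range of 0.0016 to 0.055 over its 13 alternatives. The log2 ratio of Aurkb to Incenp moved from -0.57, -0.75 and -0.63 under the NC mimic to -1.40, -1.41 and -1.63 under miR-497. The difference of -0.83, the largest of the 6 ratios, meant 0.562 times the NC ratio (exact permutation test, p = 0.1).

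Cep55 (ENSMUSG00000024989, chr19:38055011-38074423), which brings the abscission machinery to the midbody, was at 54.7, 51.9 and 56.2 CPM with NC and at 27.1, 27.8 and 23.2 CPM with miR-497. All miR-497 values were far below the NC range. The edgeR estimate was -1.06 ± 0.0792 (SE) in log2 at an adjusted p of 1.1e-08.

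The order of the falls was Anln, Cep55, Aurkb, Kif20a, Kif23, Ect2, Cit, Racgap1 and Incenp. Neighbours in this order were less than 0.1 apart on the log2 scale, except Aurkb and Kif20a, and Racgap1 and Incenp. The ratio of Cep55 to Kif23 fell by 0.33 on the log2 scale, that of Anln to Ect2 by 0.41 and that of Anln to Cit by 0.52, with groups that did not overlap (exact permutation test, p = 0.1 for each). The ratio of Ect2 to Racgap1 was lower by 0.19 with overlapping groups (exact permutation test, p = 0.2), as miR-497 library 2, at -1.69, lay between NC libraries 2 and 3, at -1.66 and -1.70.

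**Figure D2:**
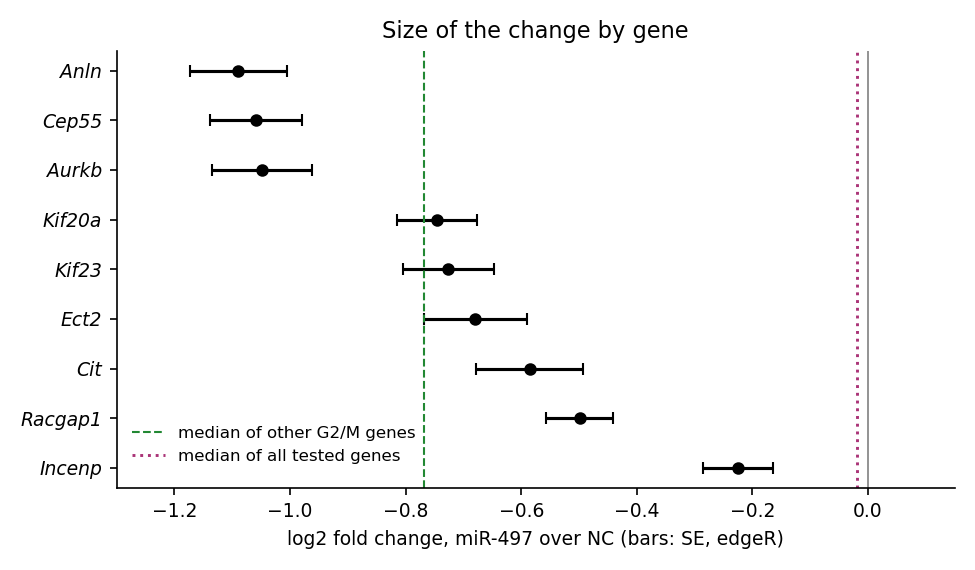
Log2 fold change of each tested cytokinesis gene (miR-497 over NC; points are edgeR estimates and bars 1 SE), with vertical lines at the medians of 29 other G2/M genes (-0.77) and of all tested genes (-0.02). Anln, Cep55 and Aurkb lie to the left of the G2/M median and Incenp farthest to the right.

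**Figure D3:**
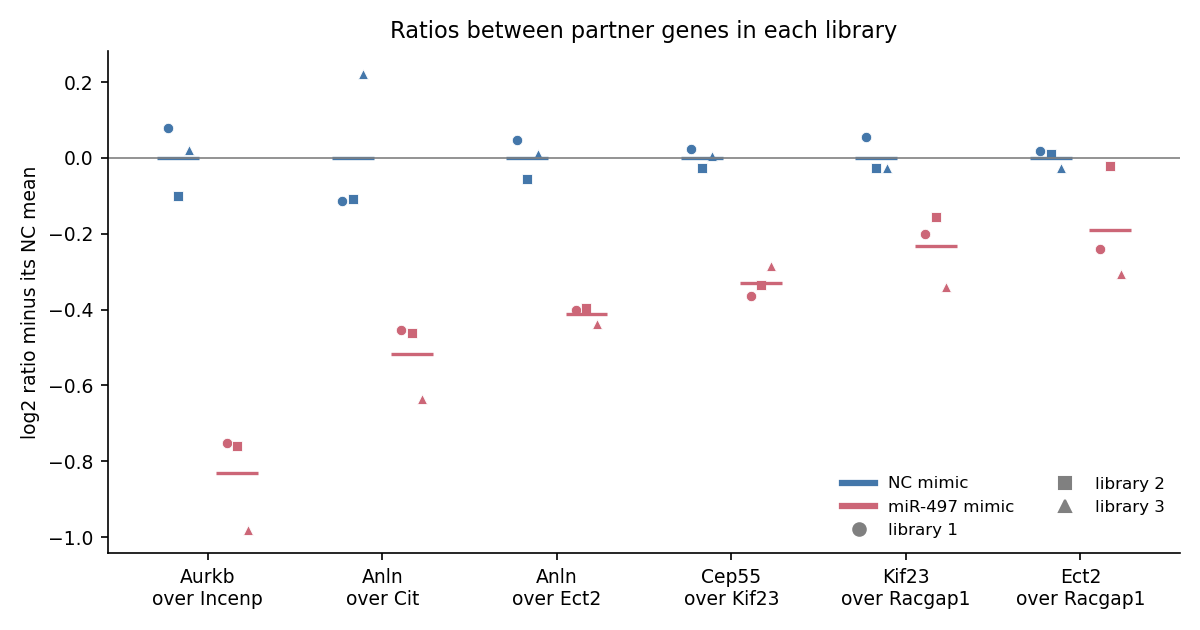
Log2 ratio of CPM between partner genes in each library, after subtracting the NC mean of that ratio; short lines are group means and symbols mark the library number. The ratio of Aurkb to Incenp fell most (-0.83), and in the ratio of Ect2 to Racgap1 miR-497 library 2 lies among the NC libraries.

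Levels of different genes were compared per length, as CPM per kilobase of the longest protein-coding transcript in GENCODE M21. In NC libraries Racgap1 was highest at 51.3 ± 2.502, followed by Aurkb at 35.1 ± 1.34, Anln at 33.5 ± 1.31, Incenp at 33.3 ± 2.01 and Kif20a at 30.7 ± 1.82 (SD, n = 3). The values of Aurkb, Anln and Incenp were within their spread of each other, and Kif20a was within the spread of Anln and Incenp. Kif23 followed at 23.5 ± 0.699 and Cep55 at 19.7 ± 0.790, and Ect2 at 11.996 ± 0.399 and Cit at 3.59 ± 0.356 were the lowest. In miR-497 libraries Racgap1 was at 36.3 ± 2.15 and Incenp at 28.5 ± 1.44, and the next, Kif20a, was at 18.3 ± 1.61. Aurkb, at 16.96 ± 2.30, and Anln, at 15.7 ± 2.47, were then within their spread of Kif20a. With all annotated exon bases as the length, the NC order changed at the top, to Kif20a (26.0), Incenp (24.9), Aurkb (23.2) and Racgap1 (22.1), while Ect2 (9.10) and Cit (2.08) were again the lowest.

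The rest of the cytokinesis pathway was described in 3 lists chosen by function, with earlier results of these data known. CPM is given as mean ± SD (n = 3). Among 13 partners of the central spindle and the passenger complex, 9 fell, 2 rose and 2 did not pass the threshold, with a median log2 fold change of -0.71. Of all tested genes, 26.0% were lower and 23.8% higher. Plk1, the kinase that licenses ECT2 binding to RACGAP1, fell from 100.3 ± 5.83 to 45.3 ± 6.22 CPM (-1.15 ± 0.0849 in log2 with its SE; adjusted p = 9.8e-09 by edgeR). The mitotic kinesin genes Kif20b and Kif14 both had a log2 fold change of -0.86, as had Arhgap11a, which encodes a GTPase-activating protein. Birc5 and Cdca8, the other passenger subunits, fell by 0.62 and 0.71, between Incenp and Aurkb. The 2 that rose, Klhl9 (0.30, edgeR adjusted p = 0.0043) and Klhl21 (0.94), encode adaptors of CUL3 ubiquitin ligases that act on Aurora B. Tex14 stood at 2.31 ± 1.14 CPM with NC and 2.09 ± 0.448 CPM with miR-497, and Klhl13, a further adaptor, at 1.77 ± 0.842 and 3.05 ± 0.891 CPM; neither passed (edgeR adjusted p = 0.75 and 0.073). Klhl13 passed under several alternatives, among them the block (0.042) and DESeq2 (0.047), with adjusted p from 0.017 to 0.29 over all 13. Opposite-strand gene models cover 15.84% of the exon bases of Klhl9 and 20.5% of those of Klhl21. Among the partners that fell, they cover 15.09% in Kif4, 7.09% in Plk1 and 4.48% in Cdca8. The counts of all these genes are thus uncertain.

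In the contractile ring list, 22 of 23 genes could be tested, and 7 fell, 7 rose and 8 did not pass, with a median of -0.02, equal to that of all tested genes. The shares lower and higher, 7 of 22 each, were near the 26.0% and 23.8% of all genes. The 2 formin genes, which encode actin nucleators, fell: Diaph3 from 65.1 ± 0.927 to 34.5 ± 2.25 CPM (-0.91 ± 0.0692 in log2 with its SE; adjusted p = 1.3e-08 by edgeR) and Diaph1 by 0.54. Arf6, a small GTPase of membrane traffic, fell by 0.41, and opposite-strand exons cover 13.62% of its exon bases. Sept9, a septin, rose from 406 ± 6.76 to 657 ± 17.9 CPM (0.70 ± 0.0518 in log2 with its SE; adjusted p = 1.1e-08 by edgeR). Myh10, a nonmuscle myosin heavy chain, was at 827 ± 81.3 and 837 ± 39.9 CPM, and Rock1, the kinase that activates myosin, at 127.7 ± 3.12 and 123 ± 9.52 CPM, with edgeR adjusted p of 0.86 and 0.45. Myl12a was at 11.7 ± 1.06 and 12.5 ± 0.776 CPM (edgeR adjusted p = 0.55). Myl12a, Myl12b and Sept2 share exons with other gene models of the same strand, so their counts are uncertain. The number that rose was 3 without NC replicate 1 and 4 without NC replicate 2.

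Of 20 abscission genes, which encode ESCRT subunits and their regulators, 18 could be tested. Chmp1a and Chmp1b were listed at 0 in all 6 libraries, which was not read as a level. Among the 18 tested genes, 7 fell, 7 rose and 4 did not pass, with a median of 0.04, where 26.0% of all tested genes were lower and 23.8% higher. The largest falls of the whole pathway were here, in Mitd1, which encodes a protein that binds ESCRT subunits at the midbody (from 86.6 ± 8.03 to 33.5 ± 2.00 CPM; -1.37 ± 0.0774 in log2 with its SE; adjusted p = 4e-10 by edgeR), and in Ist1, which encodes an ESCRT regulator (from 55.7 ± 0.262 to 24.1 ± 0.757 CPM; -1.20 ± 0.0680 in log2 with its SE; adjusted p = 3.9e-10 by edgeR). The Ist1 3' UTR of 1123 bases has 4 sites of 7 bases, and the longest 3' UTR of Mitd1 has none. Exons of Lipt1, on the opposite strand, cover 9.46% of the exon bases of Mitd1. Pdcd6ip, whose product ALIX binds CEP55, fell by 0.54 and has 2 such sites. Tsg101, whose product is the other ESCRT adaptor bound by CEP55, rose by 0.49 and has no such site. Spast, which encodes the microtubule-severing enzyme spastin, rose by 0.81 (edgeR adjusted p = 7.2e-08) and has 1 such site. The genes of the ATPase that takes ESCRT filaments apart, Vps4a and Vps4b, and its cofactor Vta1 had log2 fold changes of 0.07, 0.02 and -0.07 and did not pass (edgeR adjusted p = 0.46, 0.79 and 0.41).

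**Figure D4:**
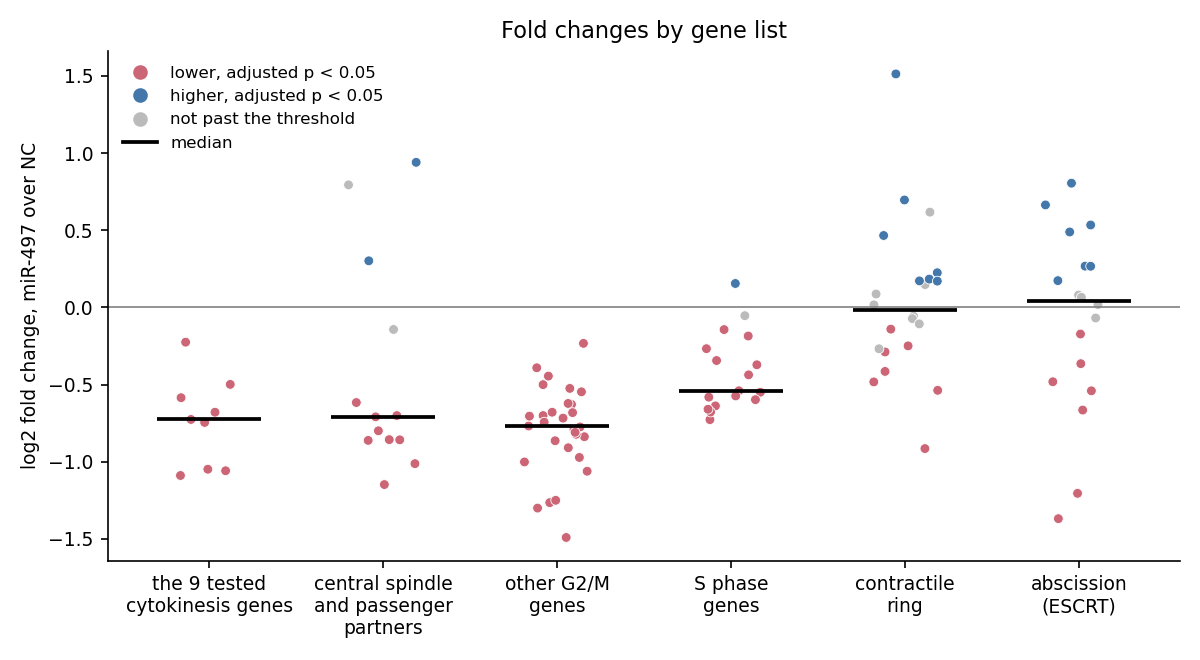
Log2 fold change (miR-497 over NC) of each tested gene in 6 lists: 9 cytokinesis genes, 13 central spindle and passenger partners, 29 other G2/M genes, 17 S phase genes, 22 contractile ring genes and 18 abscission genes; colours mark the edgeR call and black lines the medians. The first 3 lists have medians between -0.77 and -0.71, and the contractile ring and abscission lists have medians of -0.02 and 0.04 with calls in both directions.

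The members were set beside other genes of the same cell cycle phase and beside S phase genes, in lists also chosen with earlier results known. All 29 other G2/M genes were lower (26.0% of all tested genes), with a median log2 fold change of -0.77, from Hmmr at -1.49, Aurka at -1.27 and Nusap1 at -1.25, through Cdk1 at -0.86 and Cenpe at -0.45, to Ndc80 at -0.39 and Gtse1 at -0.23. Of 17 tested S phase genes, 15 fell, 1 rose and 1 did not pass, with a median of -0.54; Mcm5 (-0.64) and Rrm2 (-0.73) were among those that fell, as were Rrm1 (-0.54), Cdc6 (-0.66) and Mcm7 (-0.14, edgeR adjusted p = 0.037), while Mcm6 was at 0.16 (edgeR adjusted p = 0.023) and Mcm2 at -0.05 (edgeR adjusted p = 0.41). Mcm6 missed the threshold under the block by replicate number (edgeR adjusted p = 0.073) and in the fits without NC replicate 1, NC replicate 2, miR-497 replicate 1 or miR-497 replicate 2. Mcm7 missed it under both other scalings, without the filter, under the block and under DESeq2 (edgeR or DESeq2 adjusted p from 0.058 to 0.12). It also missed in each fit lacking 1 library except that without NC replicate 1 (edgeR adjusted p from 0.059 to 0.21). Gins2 and Cdt1, also listed as S phase genes, were at 0 in all 6 libraries and were not tested. The number of S phase genes that fell was 13 to 15 over the alternatives. The part of these cell cycle differences in the falls of the cytokinesis genes was not tested.

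Measured against the mean log2 CPM of the other G2/M genes in the same library, the members split. Anln was 0.71 above that mean with NC, on average, and 0.42 above it with miR-497, a difference of -0.30. The corresponding differences were -0.26 for Cep55 and -0.25 for Aurkb. Kif23 (0.07), Ect2 (0.11), Racgap1 (0.30) and Incenp (0.58) were higher relative to the G2/M genes with miR-497, again with no overlap between groups. The exact permutation test gave p = 0.1, its smallest value, for all 7. The G2/M genes themselves averaged -0.80 with miR-497 relative to the NC mean, so an unchanged gene would be higher on this scale. The share of all tested genes without overlap on this scale was not computed. For Cit (0.22) and Kif20a (0.05) the groups overlapped, with exact permutation p = 0.2 and 0.4. Single libraries moved these values: Cit was at 0.12 without NC replicate 3, and Kif20a at 0.022 without NC replicate 2, 0.029 without miR-497 replicate 3 and 0.082 without NC replicate 3. Set against the mean of the S phase genes instead, Kif23 (-0.31), Ect2 (-0.26), Racgap1 (-0.07), Cit (-0.16) and Kif20a (-0.32) were lower with miR-497, so that their direction depends on the genes used for scaling. The groups of Cit overlapped here too (exact permutation p = 0.3), while Kif23, Ect2, Racgap1 and Kif20a each gave p = 0.1 by that test. Thus Incenp, at 1.49 times its NC level relative to the G2/M genes, and Anln, at 0.813 times, were at the 2 ends.

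The CHR word was also counted in the promoters of the other lists. It was in 9 of 12 central spindle and passenger partners and 19 of 26 other G2/M genes with a promoter, and in 4 of 18 contractile ring genes, 4 of 15 abscission genes and 3 of 15 S phase genes, against 16.9% of all tested genes. All 19 G2/M genes and all 5 cytokinesis genes with the word were lower, as was every tested gene of these lists, Cit without the word among them. Of the partners, 6 of 9 with the word and 9 of 13 in all were lower. Of those with the word, 2 of 4 contractile ring genes, 3 of 4 abscission genes and 2 of 3 S phase genes were lower, against 7 of 22, 7 of 18 and 15 of 17 in the whole lists. Sites of 7 or more bases in the 3' UTR were in 5 of the 29 other G2/M genes, with a median log2 fold change of -1.25, against -0.73 for the 24 without one. All of both sets were lower, as were the 8 cytokinesis genes without such a site, with a median of -0.71. Among abscission genes, 4 of 6 with a site fell (median -0.51), and 3 of 12 without one fell while 6 rose (median 0.12). Of contractile ring genes, 4 of 8 with a site fell and 2 rose (median -0.18), and 3 of 14 without one fell while 5 rose (median 0.05). Of S phase genes, all 3 with a site fell (median -0.64), and 12 of 14 without one fell while 1 rose (median -0.40). Central spindle and passenger partners went the other way, with a median of -0.66 for the 4 with a site, of which 3 fell, and of -0.80 for the 9 without one, of which 6 fell. Of all tested genes, 26.0% were lower and 23.8% higher. These differences were not tested.

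Within the miR-497 group, library 3 was the lowest for all 9 cytokinesis genes and for 28 of the 29 other G2/M genes, against 38.5% of all tested genes. Relative to the NC mean, the 9 genes averaged -0.69, -0.63 and -0.91 in log2 CPM in miR-497 libraries 1 to 3, and the other G2/M genes -0.73, -0.68 and -0.9964. In the NC group, library 3 was the highest for 7 of the 9 and for 13 of the 29 other G2/M genes, against 34.8% of all tested genes. Without miR-497 replicate 3 all 9 genes were still lower past the threshold.

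The genes whose profile over the 6 libraries was most like the mean of the members, by Pearson correlation of log2 CPM among 7912 other genes with a mean of at least 4, were Cip2a, Nudt4, Tent4a, Rab29 and Tmpo, with r of 0.9994, 0.9994, 0.9991, 0.9991 and 0.9990. These points share the group difference and the order of the miR-497 libraries. Their log2 fold changes were -0.91, -0.56, -0.89, -0.62 and -0.40, and none was in the lists above.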

How the data were processed

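Poly(A) RNA of 3 NC and 3 miR-497 libraries was counted by the authors; annotation release was not given in the sources used here. The submitters' processing notes name STAR 2.5.4b, featureCounts, Subread 1.6.1, edgeR 3.32.1 and the build GRCm38; strand setting and the handling of multiply aligned reads are not given in the sources used here. The deposited values are raw counts per Ensembl gene, not normalized. Groups and numbers came from the titles. Symbols, lengths and 3' UTRs were taken from GENCODE M21 (GRCm38), which matched 55141 of 55401 identifiers; site sequences came from its transcripts.

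Genes passing filterByExpr (minimum count 10, minimum total 15) were scaled by TMM and tested with edgeR 4.0.16 in R 4.3.3 (quasi-likelihood F-test, group only), 2-sided, adjusted over 14661 genes by Benjamini-Hochberg. Log2 CPM used a prior count of 2. The standard error is the log2 fold change over the square root of F. Alternatives were DESeq2 1.42.0, limma 3.58.1 voom, other scalings and filters, a replicate block and leaving out each library. The edgeR fit was tested on simulated data. The longest 3' UTR per gene was searched. Promoters of Aurkb and Incenp had no entry, and Kif20a's was not used. Named genes of a list were the 4 with the smallest and 3 with the largest p, and a few chosen after their values were seen (Birc5, Cdca8, Klhl21, Tsg101). Members and lists were chosen with earlier results of these data known.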

Additional observations from a re-analysis of the deposited data

How the results depend on the processing

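The 9 cytokinesis genes kept direction and call in 116 of 117 refits (13 alternatives each); the exception was Incenp without NC replicate 2 (log2 fold change -0.19, edgeR adjusted p = 0.055), so 8 to 9 were lower in fits lacking 1 library. All 9 were lower under the replicate block. The labels do not say that a number marks a shared culture, and deviations of same-numbered libraries correlated at -0.12, -0.04 and -0.13, so the numbers were not taken as pairs; the block gave 3563 lower and 3177 higher genes in all, against 3817 and 3490. For the ratios of partner genes, 0.25 is the smallest p that an exact sign-flip permutation over 3 pairs can give, so pairing by number could not pass the threshold.

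Relative to the mean of the S phase genes instead of the G2/M genes, 5 members changed sign: Kif23 to -0.31, Racgap1 to -0.0743, Ect2 to -0.26, Cit to -0.16 (with overlapping groups) and Kif20a to -0.32, since the S phase genes fell less. In fits lacking 1 library, 3 to 8 contractile ring genes and 0 to 1 S phase genes rose; no S phase gene (0) rose with the replicate block in edgeR, where 1, Mcm6, had an unadjusted p under 0.05; the other tools, DESeq2 and limma voom, each called 1. Among the named genes that did not pass, the sign changed in Tex14, Myh10 and Vps4b when a library was left out. Tex14 ranged from -0.3439 to 0.3286, Myh10 from -0.0367 to 0.1111 and Vps4b from -0.0036 to 0.0507. The cause was not tested. The tested members had 556 to 5671 counts per library; Tex14 and Klhl13, at 29 to 120 counts, were less precise.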
